A study of Mus musculus with 48 samples.

Results

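Glucocorticoid-responsive genes were followed through adipogenesis of 3T3-L1 cells, a mouse fibroblast line that turns into fat cells, with and without knockdown of PPARγ. The genes are the glucocorticoid receptor NR3C1 and 6 genes known to respond to it or to act on its hormone: FKBP5, TSC22D3, DUSP1, HSD11B1, MT1 and MT2. All probes carrying these names on an Illumina MouseRef-8 bead array were taken, which gave 8 probes for 7 genes out of 24613 probes for 18991 gene names. HSD11B1 has 2 probes and each other gene has 1. A probe was taken as above background on an array where its detection p was below 0.01. By that limit 7 of the 8 probes were measured on 3 or more arrays, beside 10567 of all 24613.

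A glucocorticoid such as dexamethasone enters the cell and binds its receptor, which is held in the cytoplasm by heat shock proteins and co-chaperones. The receptor then moves to the nucleus, where it raises some genes through DNA elements and lowers others, many of them inflammatory, in part by interfering with other transcription factors. In preadipocytes a glucocorticoid is one of the agents that start the fat cell program, and in fat tissue the enzyme encoded by HSD11B1 renews active hormone from its inactive form.

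All cells were transfected with 50 nM siRNA before differentiation, either a pool against PPARγ (PPARγ KD) or a pool without a target (control siRNA). Confluent cells received 0.25 µM dexamethasone together with 0.5 mM isobutylmethylxanthine (IBMX, an inhibitor of phosphodiesterases that raises cAMP) for 48 hours, and then 5 µg/ml insulin with 1 µM rosiglitazone, a PPARγ ligand, for 48 hours. Medium was replaced every 2 days. Days are counted from the start of rosiglitazone, so that day −2 precedes dexamethasone and day 0 closes its 48 hours. Day 2 closes the 48 hours of insulin and rosiglitazone. Cells were harvested on day −2 and on each day from 0 to 6, in 3 independent biological replicates per siRNA and day, which made 48 arrays. All cultures followed this one schedule up to their harvest, and no culture was kept without the agents. The effect of a glucocorticoid therefore cannot be told apart from that of IBMX given with it, of medium changes or of time in culture. The model is a single established cell line.

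Between 33.4% and 40.4% of all probes were above background on an array. The 16 arrays of replicate 3 stood apart, with 33.4% to 35.4% against 36.8% to 40.4% on the others, and the replicate number entered the model as a block. Pparg itself was lower in PPARγ KD in 24 of 24 pairs of arrays, with a difference of −2.34 ± 0.04 (SE) on the log2 scale, and on single days between −2.63 and −1.93. Of 8 fibroblast markers, 8 were above background on every array. Of 10 adipocyte markers, between 8 and 10 were above background on control arrays of day 6 and 5 on PPARγ KD arrays of that day. Markers of macrophages (4), endothelium (3) and epithelium (3) were above background on 0 arrays.

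Expression values are background-corrected, scaled signals of the bead array, in arbitrary units or as log2 of these units. Differences are log2 differences from a linear model over all 48 arrays (limma), with SE, and a change was called at an adjusted p (Bonferroni over 24613 probes) of at most 0.05. In RNA from whole cultures, fewer cells of a type and less RNA per cell cannot be told apart.

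Across the 48 hours of dexamethasone and IBMX, 7 of 8 probes rose, in control siRNA as in PPARγ KD. Of all probes, 4.01% were called higher in control siRNA and 3.36% in PPARγ KD between day −2 and day 0. No replicate of a rising probe overlapped between these days. The rise was largest for FKBP5 and TSC22D3 and smallest for MT1. The difference between the siRNAs in this rise was called for 0 of 8 probes, beside 0.662% of all probes. Before adjustment 4 of 8 had a p under 0.05 by limma, namely TSC22D3, 1 HSD11B1 probe, MT1 and MT2.

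After the change of agents, 5 of 8 probes fell from day 0 to day 1 in control siRNA (4.17% of all probes were called lower) and 7 of 8 in PPARγ KD (3.67%). From day 1 to day 2, 4 of 8 rose in control siRNA (1.7%) and 4 of 8 in PPARγ KD (1.58%). From day 2 to day 3, 5 of 8 fell in control siRNA (3.92%) and 4 of 8 in PPARγ KD (0.999%). The fall at day 1 in control siRNA rested on all 3 replicates, since 1, 1 and 2 probes were called without replicate 1, 2 and 3. The day 2 count in PPARγ KD was 2 without replicate 2. Among the falls at day 3 in control siRNA, that of MT1 (0.52 log2) was lost without any 1 replicate and without the block.

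Over longer spans, 5 of 8 probes differed between day 0 and day 2 in control siRNA (2 higher and 3 lower, with 12.4% of all probes called), and 1 of 8 was lower in PPARγ KD (1.97%). Between day 3 and day 6, 4 of 8 differed in control siRNA (3 higher and 1 lower, 2.53%) and 3 of 8 in PPARγ KD (2 higher and 1 lower, 1.37%). Compared with day −2, 4 of 8 were higher at day 3 in control siRNA (2.79%) and 5 of 8 in PPARγ KD (0.971%). Without any 1 replicate that count was 3 in each siRNA, since MT2 and, in PPARγ KD, MT1 were lost. At day 6, 4 of 8 were higher in control siRNA (4.11%) and 4 of 8 were higher in PPARγ KD (2.49%). Over the whole course in control siRNA, 7 of 8 probes changed, beside 23.5% of all probes. When replicate 2 was left out the count for day 2 against day 0 was 2 in control siRNA, and when replicate 3 was left out it was 3. In PPARγ KD either omission gave 0.

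**Figure D1:**
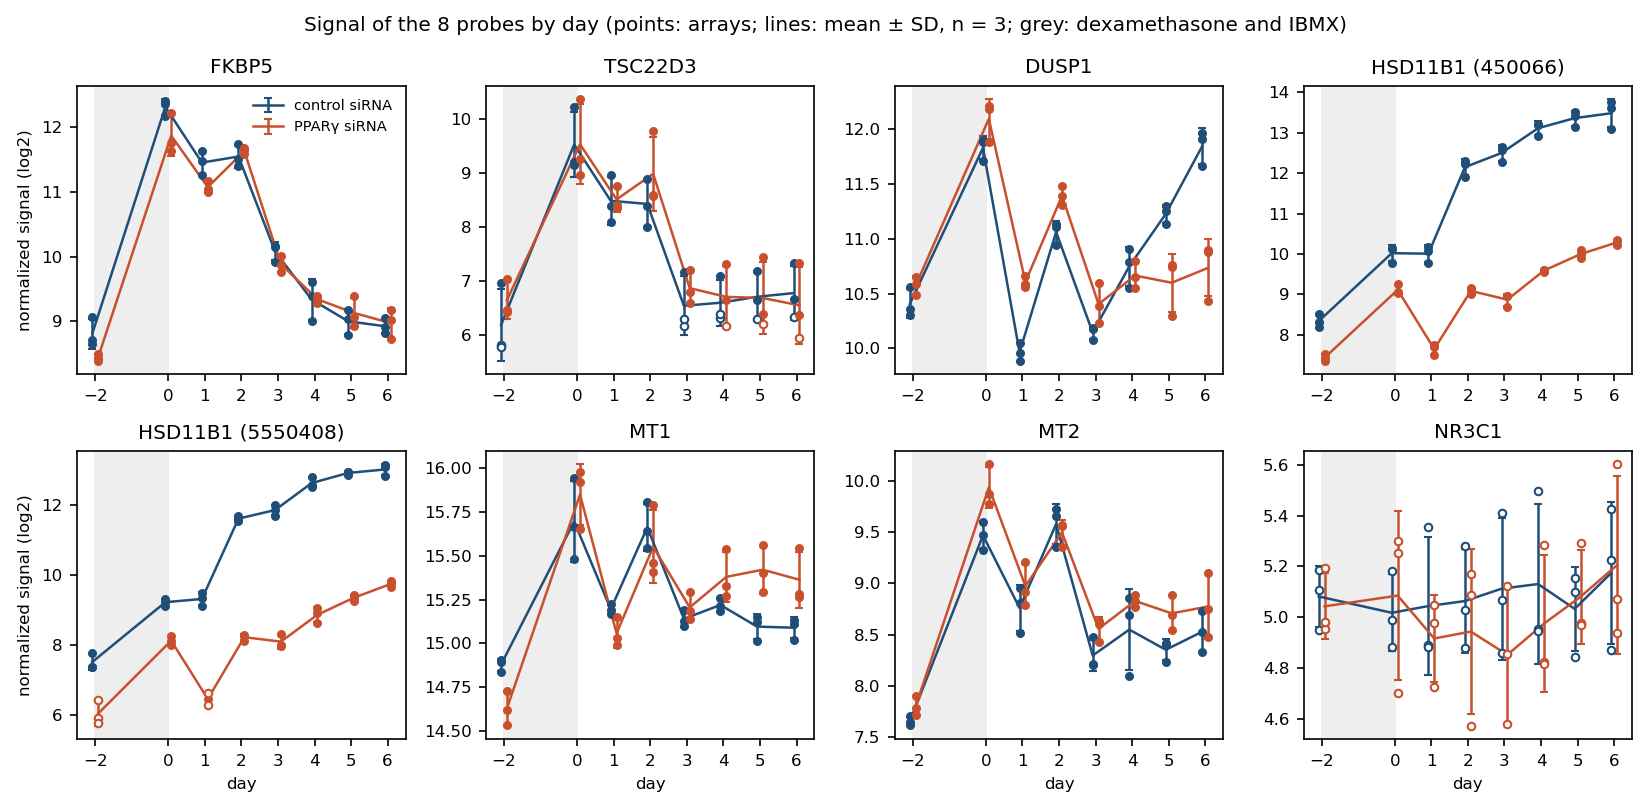
Normalized signal (log2, y axis) of the 8 probes against the day (x axis) for control siRNA (blue) and PPARγ KD (orange). Points are arrays, open where not above background, lines join means with SD bars (n = 3), and grey marks the 48 hours of dexamethasone and IBMX. FKBP5 and TSC22D3 peaked at day 0 in both siRNAs, DUSP1 rose again to day 6 in control siRNA, the HSD11B1 lines lay apart on every day, and every NR3C1 point is open.

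**Figure D2:**
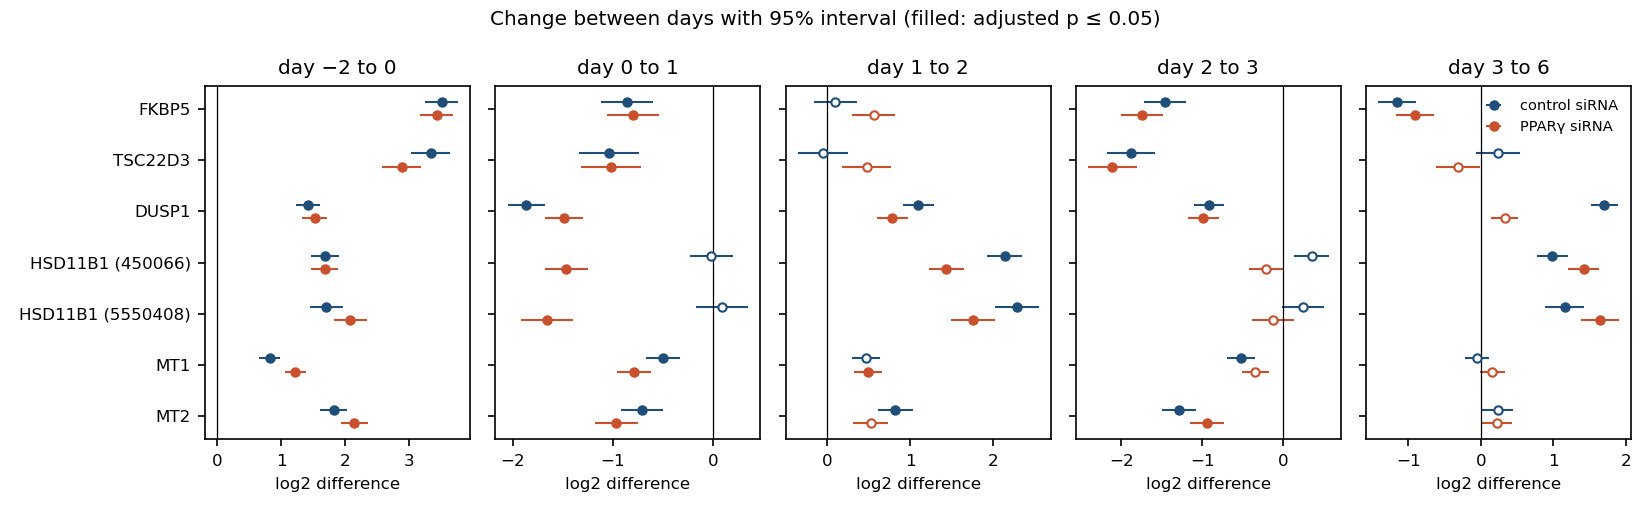
Change between days (x axis, log2 difference with its 95% interval) for each probe above background (y axis), in control siRNA (blue) and PPARγ KD (orange), with 1 panel per step. Filled points passed the adjusted p of 0.05. The 7 probes all lie right of 0 in the first panel, and the siRNAs part most for HSD11B1 from day 0 to day 1 and for DUSP1 from day 3 to day 6.

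NR3C1, the receptor itself, was not measurable here. Its single probe was above background on 0 of 48 arrays, and its deposited signal lay between 74 and 134.6, where the array medians over all probes lay between 105.1 and 141.7. No level or fold is therefore given. The proteins that hold or assist the receptor were better measured. Of 25 partners and cofactors listed, 21 were on the array and 17 were above background, and 0 of the 21 were called by limma from day −2 to day 0 in either siRNA, where 4 had an unadjusted p under 0.05 in control siRNA and 7 in PPARγ KD. Their median difference over these days in control siRNA was 0.10 log2, beside 0.08 for all probes.

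Among these partners, Fkbp4, a co-chaperone that aids transport of the receptor, was higher by 0.94 ± 0.07 (SE) at day 2 than at day 0 in control siRNA, and Stip1, which links Hsp70 to Hsp90, by 0.61 ± 0.09. Ncoa3, a coactivator, was above background on 0 control arrays of day 2 and fell at least 1.75-fold over the same days in control siRNA (adjusted p = 0.00548). In PPARγ KD over all days, Nrip1, a corepressor of nuclear receptors, and Bag1, a co-chaperone, were lower (−0.72 and −0.24 log2) and Ipo13, an importin, was higher (0.20 log2). These were 2 lower and 1 higher of 21 partners, where 6.74% of all probes were called lower and 6.37% higher, so the share of partners called is near that of all probes.

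FKBP5 encodes a co-chaperone that binds the receptor complex and lowers its affinity for hormone, and it is a standard readout of glucocorticoid action. In control siRNA its signal was 419, 536 and 400.2 in replicates 1, 2 and 3 at day −2 and 5439.9, 5221.5 and 4634 at day 0. With PPARγ KD the signal was 345, 363 and 336 at day −2 and 3172, 3456 and 4778 at day 0. Every array of day 0 lay above every array of day −2. The rise was 11.4-fold in control siRNA (log2 3.51 ± 0.13, adjusted p = 8.22e-22) and 10.8-fold in PPARγ KD (3.43 ± 0.13, adjusted p = 1.81e-21).

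FKBP5 fell in part after dexamethasone and IBMX were replaced by insulin and rosiglitazone. In control siRNA the mean was 11.45 ± 0.18 log2 (SD, n = 3) at day 1 and 11.55 ± 0.18 at day 2, and in PPARγ KD it was 11.07 ± 0.09 and 11.63 ± 0.05. The large drop came at day 3, by 1.46 ± 0.13 log2 in control siRNA (adjusted p = 2.51e-09) and by 1.75 ± 0.13 in PPARγ KD (adjusted p = 1.23e-11). A further fall of 1.16 from day 3 to day 6 (adjusted p = 1.71e-06) brought control siRNA to 8.93 ± 0.12, beside 8.81 ± 0.23 at day −2. In PPARγ KD that fall was 0.91 (adjusted p = 0.000516), and it was not called without replicate 1 or replicate 2 (adjusted p = 0.683 and 0.104).

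At day 3 FKBP5 was still 2.42-fold higher than at day −2 in control siRNA and 2.72-fold higher in PPARγ KD, and both were called. By day 6 the arrays of control siRNA overlapped those of day −2. In PPARγ KD all 3 arrays of day 6 lay above those of day −2, with a difference of 0.53 log2 that was not called (adjusted p = 1) but passed with Benjamini-Hochberg adjustment (0.00199). The order of days by mean level was the same at the top in both siRNAs, with day 0 first and day 2 next, and the steps from day 1 to day 2 were not called in either. The smaller fall from day 0 to day 1 in control siRNA (0.86 log2, adjusted p = 0.00167) was lost without replicate 1 or replicate 2 (adjusted p = 1 and 0.137) and without the block (0.0633). The fall of 0.80 log2 in PPARγ KD (adjusted p = 0.00792) was lost without replicate 1, 2 or 3 (1, 0.738 and 0.403) and without the block (0.225).

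FKBP5 was not called different between the siRNAs on any day. The difference over all days was −0.14 log2 with a 95% interval from −0.23 to −0.05, and FKBP5 was lower in PPARγ KD in 17 of 24 pairs. At days −2, 0 and 1 the difference was −0.37, −0.44 and −0.38, and on the later days it ranged from −0.20 to 0.13. None of the early differences passed the test over all probes with Bonferroni adjustment. With Benjamini-Hochberg adjustment the differences at day 0 and over all days passed (adjusted p = 0.017 and 0.0149). Of 13 other members of the FKBP family on the array, 0 rose and 2 fell from day −2 to day 0 in control siRNA: Fkbp2 by 1.21 log2 and Fkbp11 by 1.00, both prolyl isomerases of the endoplasmic reticulum. Of all probes, 5.04% were called lower in this step.

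TSC22D3 encodes GILZ, a leucine zipper protein known as an early glucocorticoid target that restrains inflammatory transcription. Its signal in control siRNA was 56.4, 55.5 and 124.5 at day −2, with 1 of 3 arrays above background, and 591, 566 and 1192 at day 0. PPARγ KD gave 86.3, 88.6 and 132.1 at day −2 and 613.5, 499 and 1316 at day 0. Day 0 was above day −2 on every array. Replicate 3 gave the highest value in each of these groups, and over all arrays it was higher than the other replicates by 0.87 log2. Since the replicates shared this offset, the block decides some calls for TSC22D3.

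The rise of TSC22D3 was 10.1-fold in control siRNA (3.33 ± 0.15 log2, adjusted p = 8.76e-19) and 7.36-fold in PPARγ KD (2.88 ± 0.15, adjusted p = 1.3e-16). Since 2 of 3 control arrays of day −2 were not above background, the control fold is not exact, and without background correction the rises were 2.24 and 2.02 log2. The fall at day 1 was 1.04 log2 in control siRNA, lost without any 1 replicate (adjusted p from 0.13 to 0.18), and 1.02 in PPARγ KD, lost without replicate 1 or replicate 3 (0.237 and 1). Both were lost without the replicate block (adjusted p = 1 in each). At day 2 its mean was 8.43 ± 0.44 log2 in control siRNA and 8.98 ± 0.69 in PPARγ KD. As for FKBP5, the large drop came at day 3, by 1.88 log2 in control siRNA (adjusted p = 1.23e-10) and by 2.11 in PPARγ KD (adjusted p = 3.44e-12). Without the replicate block these drops were not called (adjusted p = 1 and 0.446), while leaving out any 1 replicate kept both. Without background correction they were −1.14 and −1.49 log2. From day 3 to day 6 the means lay between 6.55 and 6.87 in both siRNAs, where 1 or 2 of 3 control arrays of a day were above background.

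TSC22D3 was not called different between the siRNAs on any day, and over all days the difference was 0.15 log2 (95% interval 0.05 to 0.26). With Benjamini-Hochberg adjustment TSC22D3 passed at day 2 and over all days (adjusted p = 0.00385 and 0.0218). On the 16 means of siRNA and day, its correlation with FKBP5 was r = 0.949. The means share their arrays and the same course of treatment, so this is a description of 2 curves and carries no test. Of 3 other TSC22 family genes on the array, Tsc22d1 was higher at day 0 than at day −2 in control siRNA (1.04 log2, adjusted p = 7.76e-07) and lower in PPARγ KD over all days (−0.41), while Tsc22d2 was higher there (0.29). Of all probes, 4.01% were called higher in that step, and 6.74% lower and 6.37% higher in PPARγ KD over all days.

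DUSP1 encodes MKP-1, a phosphatase that switches off MAP kinases and is known to be raised both by glucocorticoids and by cAMP. Its promoter is shown because both kinds of agent were given together. The 300 bases from 250 before to 50 after the start site (RefSeq, GRCm38.p6, chr17:26508423-26508722, minus strand) hold the palindromic cAMP response element TGACGTCA once, printed in capitals at position −143 from the start site. This element is found, on either strand, in 588 of 32851 promoter windows of the same length (1.79%).

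Dusp1 promoter: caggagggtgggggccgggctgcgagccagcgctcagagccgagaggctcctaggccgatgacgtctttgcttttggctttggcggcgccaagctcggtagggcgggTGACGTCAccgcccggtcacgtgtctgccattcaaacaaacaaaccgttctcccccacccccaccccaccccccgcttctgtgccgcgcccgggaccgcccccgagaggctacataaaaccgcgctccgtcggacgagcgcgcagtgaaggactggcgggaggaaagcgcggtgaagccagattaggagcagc

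The core of a glucocorticoid response element, ACANNNTGT, was not found in this window, where 6.85% of all windows hold it. That says only that these letters are not in these 300 bases.

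DUSP1 went up, down, up and down again from day −2 to day 3. In control siRNA the signal was 1508, 1309 and 1267 at day −2, rose to 3814, 3775 and 3348 at day 0, fell to 1059, 993 and 947 at day 1 and rose again to 2246.5, 2204 and 1973 at day 2. No group of these days overlapped with the next. The rise at day 0 was 2.68-fold (1.42 ± 0.09 log2, adjusted p = 3.7e-13), the fall at day 1 was 3.64-fold (adjusted p = 4.67e-17), the rise at day 2 was 2.14-fold (adjusted p = 1.11e-09) and the fall at day 3 was 1.89-fold (adjusted p = 1.73e-07).

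In PPARγ KD the same 4 steps were called, in the same directions. The signal was 1535, 1608 and 1435.5 at day −2, 3785, 4665 and 4735 at day 0, 1543, 1622.5 and 1511 at day 1 and 2686, 2854 and 2533 at day 2. The rise at day 2, of 0.79 log2, was not called without replicate 2 (adjusted p = 0.177). At day 1 DUSP1 was higher in PPARγ KD than in control siRNA by 0.64 ± 0.09 log2 (adjusted p = 0.00103) with no overlap, and this was not called when any 1 replicate was left out (adjusted p from 0.0877 to 1) or without the block (0.406). At day 2 DUSP1 was higher in PPARγ KD by 0.33 log2, which passed only with Benjamini-Hochberg adjustment (adjusted p = 0.00646).

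From day 3 on, the siRNAs parted. In control siRNA DUSP1 rose from 1157, 1161 and 1077 at day 3 to 4006, 3859.5 and 3243 at day 6, which was 3.26-fold (adjusted p = 9.74e-16) and its arrays of day 6 overlapped those of day 0. In PPARγ KD it was 1339.8, 1543.5 and 1203 at day 3 and 1907, 1878 and 1382.5 at day 6, a difference of 0.33 log2 that was not called. The test of the difference between the siRNAs in this change gave −1.37 ± 0.13 log2 (adjusted p = 3.71e-08), and it was called without any 1 replicate. Of all probes, 0.398% were called lower in this test, and of the 8 probes DUSP1 was called.

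At day 6 DUSP1 was 2.16-fold lower in PPARγ KD (−1.11 ± 0.09 log2, adjusted p = 7.33e-10), and at day 5 the difference was −0.63 (adjusted p = 0.00155). The day 5 value was lost under the block by day (adjusted p = 0.0615) and without replicate 1, 2 or 3 (0.146, 0.693 and 1). Over all 8 days the early and late differences have opposite signs, and the mean difference was −0.02 log2 (95% interval −0.09 to 0.05).

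Of 10 other MAP kinase phosphatase genes on the array, 2 rose from day −2 to day 0 in control siRNA (4.01% of all probes), Dusp14 by 1.25 log2 and Dusp22 by 0.69. Dusp4, which inactivates ERK in the nucleus, was above background on 0 of 3 arrays of day 0 and was at least 7.86-fold higher at day 2 in control siRNA (adjusted p = 5.58e-20). In PPARγ KD Dusp4 was above background on 0 arrays of day 2 and was at least 7.94-fold lower there than in control siRNA. Over all days, 1 of these 10 genes was higher in PPARγ KD (Dusp14, by 0.73 log2) and 2 were lower (Dusp4 and Dusp22), beside 6.37% and 6.74% of all probes.

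HSD11B1 encodes the reductase of the endoplasmic reticulum that turns inactive cortisone, or 11-dehydrocorticosterone in the mouse, into active hormone. Of the members it had the largest difference between the siRNAs, and in both it was highest at day 6. By its brighter probe (450066) the signal in control siRNA was 365, 317 and 292 at day −2, 1117, 1136 and 881 at day 0, 5084, 4783 and 3864 at day 2 and 13803.8, 12497 and 8710.3 at day 6. PPARγ KD gave 184, 163.5 and 171 at day −2, 520.2, 609 and 534 at day 0, 568, 549 and 514 at day 2 and 1185, 1296 and 1273 at day 6. On each of the 8 days all arrays of PPARγ KD lay below all arrays of control siRNA.

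From day −2 to day 6 HSD11B1 rose 35.4-fold in control siRNA by probe 450066 (5.15 ± 0.11 log2, adjusted p = 6.32e-31) and 44.9-fold by probe 5550408 (5.49 ± 0.13, adjusted p = 1.28e-28). In PPARγ KD it rose 7.24-fold by probe 450066 (adjusted p = 1.06e-21). Probe 5550408 was above background on 0 of 3 arrays of PPARγ KD at day −2, so there it rose at least 9.57-fold (adjusted p = 1.96e-22). The bound sets the mean of the brighter group against the lowest signal above background on each dim array, or the probe's own where higher. Bounds hold for background-corrected signals. Without that correction the fitted differences of probe 5550408 were 2.50 log2 for this rise, 1.18 for the rise to day 0 and −0.76 between the siRNAs at day −2, and its rise in control siRNA to day 6 was 4.82. The curves of the 2 probes over the 16 means correlated at r = 0.998.

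The rise of HSD11B1 over the 48 hours of dexamethasone and IBMX was similar in size in both siRNAs by probe 450066, 3.21-fold in control siRNA and 3.20-fold in PPARγ KD. The 95% interval of the difference of these rises was −0.30 to 0.30 log2. By probe 5550408 the rise was 3.26-fold in control siRNA and at least 3.12-fold in PPARγ KD. PPARγ KD was already lower at day −2, before the agents were given, by −0.91 log2 with probe 450066 (adjusted p = 5.57e-06) and at least 2.05-fold with probe 5550408. With probe 450066 this was not called without replicate 1 or replicate 2 (adjusted p = 0.0719 and 0.0537), and the day 0 difference was lost by both probes without replicate 1 (0.17 and 0.114).

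The siRNAs parted at day 1. In control siRNA HSD11B1 moved by −0.01 and 0.09 log2 from day 0 to day 1 by its 2 probes, neither called. In PPARγ KD it fell by 1.46 and 1.66 (adjusted p = 6.39e-12 and 8.45e-11), to 216, 180 and 208 by probe 450066, close to its level of day −2. The difference between the siRNAs in this step was −1.45 ± 0.15 log2 for probe 450066 (adjusted p = 2.13e-07) and −1.76 ± 0.18 for probe 5550408 (adjusted p = 3.62e-07). Probe 5550408 was above background on 1 of 3 arrays of PPARγ KD at day 1, so its values there are not exact, and without background correction its fall was 1.00 log2 and its difference −1.07. Only 0.223% of all probes were called lower in this test, and of the 8 probes these were the 2 that passed it.

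From day 1 to day 2 HSD11B1 rose in both siRNAs, 4.42-fold in control siRNA and 2.71-fold in PPARγ KD by probe 450066. The gap to control siRNA was widest at day 3, at 12.4-fold by probe 450066, and was 9.16-fold at day 6. In the mean over all days the difference in HSD11B1 was −2.62 ± 0.04 log2 (adjusted p = 9.81e-37) and −2.89 ± 0.05 (adjusted p = 5.92e-35), with PPARγ KD lower in 24 of 24 pairs by each probe. The second value includes day −2, when PPARγ KD was not above background by that probe, and is not exact. Between day 3 and day 6 both siRNAs rose, by 0.98 log2 in control siRNA and by 1.42 in PPARγ KD, and the difference of these rises, of 0.43, was not called.

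The summed signal of the adipocyte markers, like HSD11B1, was higher at day 6 than at day −2 in both siRNAs and lower in PPARγ KD. The summed signal of the 10 markers lay between 10608 and 12310 in control siRNA at day −2 and between 131662 and 141895 at day 6, against 4646 to 5257 and 30567 to 33195 in PPARγ KD. At day −2, 1 to 2 of the 10 were above background in each siRNA. At day 6 in PPARγ KD 5 of the 10 were, so a rise there is not shown for the others. In PPARγ KD the sum lay between 4310 and 6385 at day 0 and between 5882 and 6580 at day 1. In these steps the sum did not share the rise and fall of HSD11B1. It rests on few markers, since 2 of the 10 were above background at day 0 and 1 at day 1. Lipe, a marker, fell at least 1.46-fold from day 0 to day 1 in PPARγ KD (adjusted p = 0.00028). The part of cell composition in the HSD11B1 difference was not tested. On the array were 5 other genes of hormone reactivation or of NADPH formation in general. Of these, Pgd and G6pdx rose from day −2 to day 0 in control siRNA by 0.84 and 0.66 log2, where 4.01% of all probes rose. The rise of G6pdx was near the threshold (adjusted p = 0.0478). Both encode NADPH-forming enzymes of the pentose phosphate pathway. In PPARγ KD over all days both were lower (−0.29 and −0.36), beside 6.74% of all probes. H6pd, which supplies NADPH to the HSD11B1 enzyme, differed by −0.10 log2 and was not called. Hsd11b2, which inactivates the hormone, was above background on 0 arrays.

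MT1 and MT2 encode metallothioneins, small cysteine-rich proteins that bind zinc and other metals and are known to be raised by metals and by glucocorticoids. Their promoters are shown because the 2 genes moved together. Capitals mark the core of the metal response element, TGCACNC or TGCGCNC on either strand, and in Mt1 also the core of the glucocorticoid response element, ACANNNTGT, at position −92. The Mt1 window lies at chr8:94178839-94179138 and the Mt2 window at chr8:94172368-94172667, both on the plus strand (RefSeq, GRCm38.p6).

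Mt1 promoter: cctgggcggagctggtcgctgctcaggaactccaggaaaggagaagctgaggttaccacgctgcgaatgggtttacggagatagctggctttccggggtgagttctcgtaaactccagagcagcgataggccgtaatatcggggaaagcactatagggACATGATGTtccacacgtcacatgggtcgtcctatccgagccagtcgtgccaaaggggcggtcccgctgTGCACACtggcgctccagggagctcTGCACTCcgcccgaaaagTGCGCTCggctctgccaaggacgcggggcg

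Mt2 promoter: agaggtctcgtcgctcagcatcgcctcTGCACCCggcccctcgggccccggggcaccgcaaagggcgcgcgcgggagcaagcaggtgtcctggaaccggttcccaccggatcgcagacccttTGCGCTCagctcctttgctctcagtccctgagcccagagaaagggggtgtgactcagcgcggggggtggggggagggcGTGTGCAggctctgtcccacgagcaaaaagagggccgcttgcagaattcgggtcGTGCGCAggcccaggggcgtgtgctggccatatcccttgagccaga

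Mt1 holds the metal response core 3 times and Mt2 4 times, while Dusp1 and Hsd11b1 hold it once each, at −6 and −237. Of 32851 windows, 25.7% hold this core at least once and 1.97% hold it 3 times or more. The match ACANNNTGT occurs in 6.85% of windows, and among the 8 windows of the 6 genes with an entry in the table only Mt1 has it. A C/EBP-type match, TTGCNNAA, is found in Mt2 and in 10.8% of windows. For PPARγ only 1 exact sequence was searched, the half-site AGGTCA repeated with 1 base between. It was found in none of the 8 windows and in 0.0396% of all, too rare for its absence to tell anything. Forms with mismatches were not searched. Fkbp5 and the 3 windows of Tsc22d3 had no match to any motif searched, which says nothing of elements farther away.

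**Figure D3:**
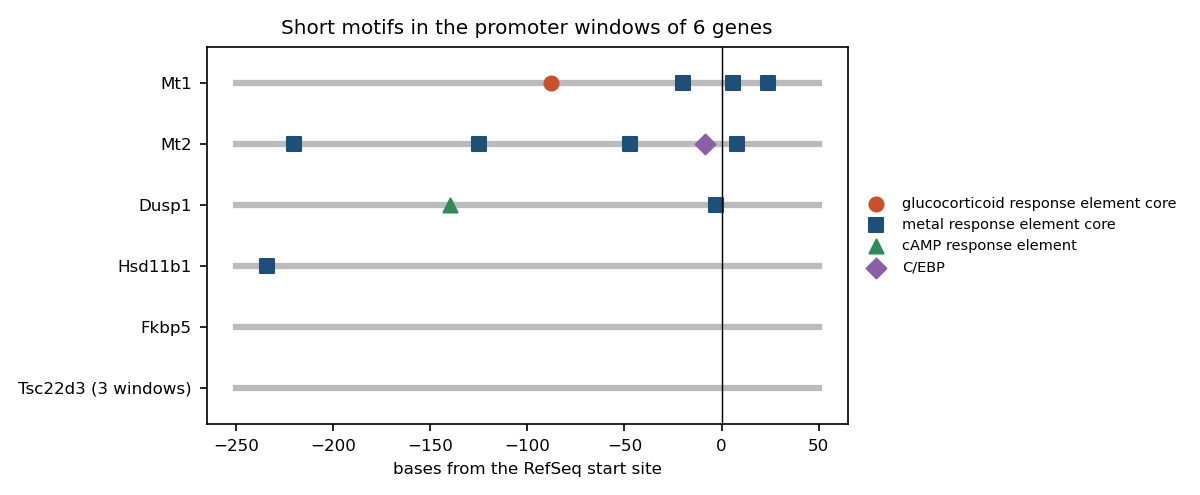
Position of the short motifs (x axis, bases from the RefSeq start site) in the promoter windows of 6 genes (y axis). Symbols mark the middle of each match. The metal response cores gather in Mt1 (3) and Mt2 (4), Dusp1 alone has the cAMP response element, Mt1 alone has the glucocorticoid response core, and Fkbp5 and Tsc22d3 have no mark.

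MT2 went up, down and up again in its means from day −2 to day 2. Its signal in control siRNA was 196, 199.6 and 208 at day −2, 778, 712 and 644 at day 0, 448, 498 and 365 at day 1 and 847, 807 and 656 at day 2. PPARγ KD gave 221, 239 and 210.1 at day −2, 936, 1150.5 and 879 at day 0, 484.5, 592 and 443.5 at day 1 and 755, 763 and 656 at day 2. Each siRNA showed a peak at day 0, a trough at day 1 and a second peak at day 2. The rise at day 0 was 3.53-fold in control siRNA (1.82 ± 0.10 log2, adjusted p = 4.75e-15) and 4.40-fold in PPARγ KD (2.14 ± 0.10, adjusted p = 2.02e-17).

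The fall of MT2 at day 1 was 0.71 log2 in control siRNA (adjusted p = 0.00129), lost without any 1 replicate (adjusted p from 0.122 to 1), and 0.96 in PPARγ KD (adjusted p = 9.19e-07). The rise at day 2 was 0.82 in control siRNA (adjusted p = 5.16e-05; 0.166 without replicate 1) and 0.52 in PPARγ KD, which was not called. At day 3 MT2 fell by 1.29 log2 in control siRNA and by 0.94 in PPARγ KD, and both were called. At day 6 MT2 was 1.84-fold higher than at day −2 in control siRNA (adjusted p = 1.01e-05; 0.226 without replicate 2) and 1.96-fold higher in PPARγ KD (adjusted p = 7.17e-07).

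MT2 was slightly higher in PPARγ KD over all days, by 0.24 ± 0.04 log2 (adjusted p = 0.0043) and in 21 of 24 pairs. This call was lost without the block (adjusted p = 1), with the block by day (0.0807) and without replicate 1, 2 or 3 (0.135, 1 and 0.784). It was not called on any single day, where it lay between −0.08 and 0.47. With Benjamini-Hochberg adjustment the differences at days 0 and 5 passed (adjusted p = 0.00138 and 0.0195).

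MT1 gave the brightest signal of the 8 probes, between 38.3% and 94.2% of the highest signal of its array, and whether the upper end of the signal range limits its differences was not tested. In control siRNA it was 29322, 30395 and 30701 at day −2 and 45742, 51927.5 and 62908.5 at day 0. The signal in PPARγ KD was 23707, 25205 and 27186 at day −2 and 64505, 51442 and 61995 at day 0. The rise was 1.76-fold in control siRNA (0.82 ± 0.08 log2, adjusted p = 2.35e-07) and 2.33-fold in PPARγ KD (1.22 ± 0.08, adjusted p = 1.64e-12).

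The difference of these MT1 rises, 0.40 log2 with a 95% interval from 0.16 to 0.65, was not called over all probes. MT1 then fell at day 1 by 0.50 log2 in control siRNA (adjusted p = 0.0173) and by 0.79 in PPARγ KD (adjusted p = 5.24e-07). The control value was lost with quantile normalization (adjusted p = 0.138) and without replicate 1, 2 or 3 (0.0901, 1 and 1). In the change from day −2 to days 4 to 6, MT1 gained 0.50 log2 more in PPARγ KD than in control siRNA, which missed the threshold (adjusted p = 0.19) and passed it with quantile normalization (0.000283), without background correction (0.0138) and after a filter on dim probes (0.0284). With Benjamini-Hochberg adjustment this late difference of MT1 also passed (adjusted p = 0.000182). So did the higher MT1 in PPARγ KD at day 5 (0.32 log2, adjusted p = 0.00671) and at day 6 (0.27 log2, 0.0225). The curves of MT1 and MT2 over the 16 means correlated at r = 0.919. The 2 transcripts are close paralogs, and whether a probe also takes up RNA of the other was not tested.

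Between the siRNAs over all 8 days, 3 of 8 probes were called, beside 13.1% of all probes: both HSD11B1 probes lower and MT2 higher in PPARγ KD. Day by day, the count was 2 of 8 at days −2, 0, 2, 3 and 4 and 3 of 8 at days 1, 5 and 6. The background over all probes was 0.861% at day −2, 3.03% at day 0, 2.91% at day 1, 8.92% at day 2, 2.76% at day 3, 2.4% at day 4, 3.24% at day 5 and 3.88% at day 6. The 2 probes called on each day were those of HSD11B1, and DUSP1 was the other at days 1, 5 and 6. In the change from day −2 to the mean of days 4 to 6, 3 of 8 probes gained less in PPARγ KD, with 2.41% of all probes called lower.

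These late differences were −2.46 ± 0.12 and −2.05 log2 for HSD11B1 probes 450066 and 5550408 and −0.78 ± 0.11 for DUSP1 (adjusted p = 0.000374). The fitted value of probe 5550408 starts from PPARγ KD at day −2, where 0 of 3 arrays were above background, so it is not exact, and it was −2.52 without background correction. The DUSP1 value was lost without replicate 2 or replicate 3 (adjusted p = 1 and 0.136) and without the block (0.196). FKBP5 and TSC22D3 had 0.43 and −0.50 in the same test and were not called. FKBP5, TSC22D3, DUSP1 and MT1 were not called in the mean over all days.

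**Figure D4:**
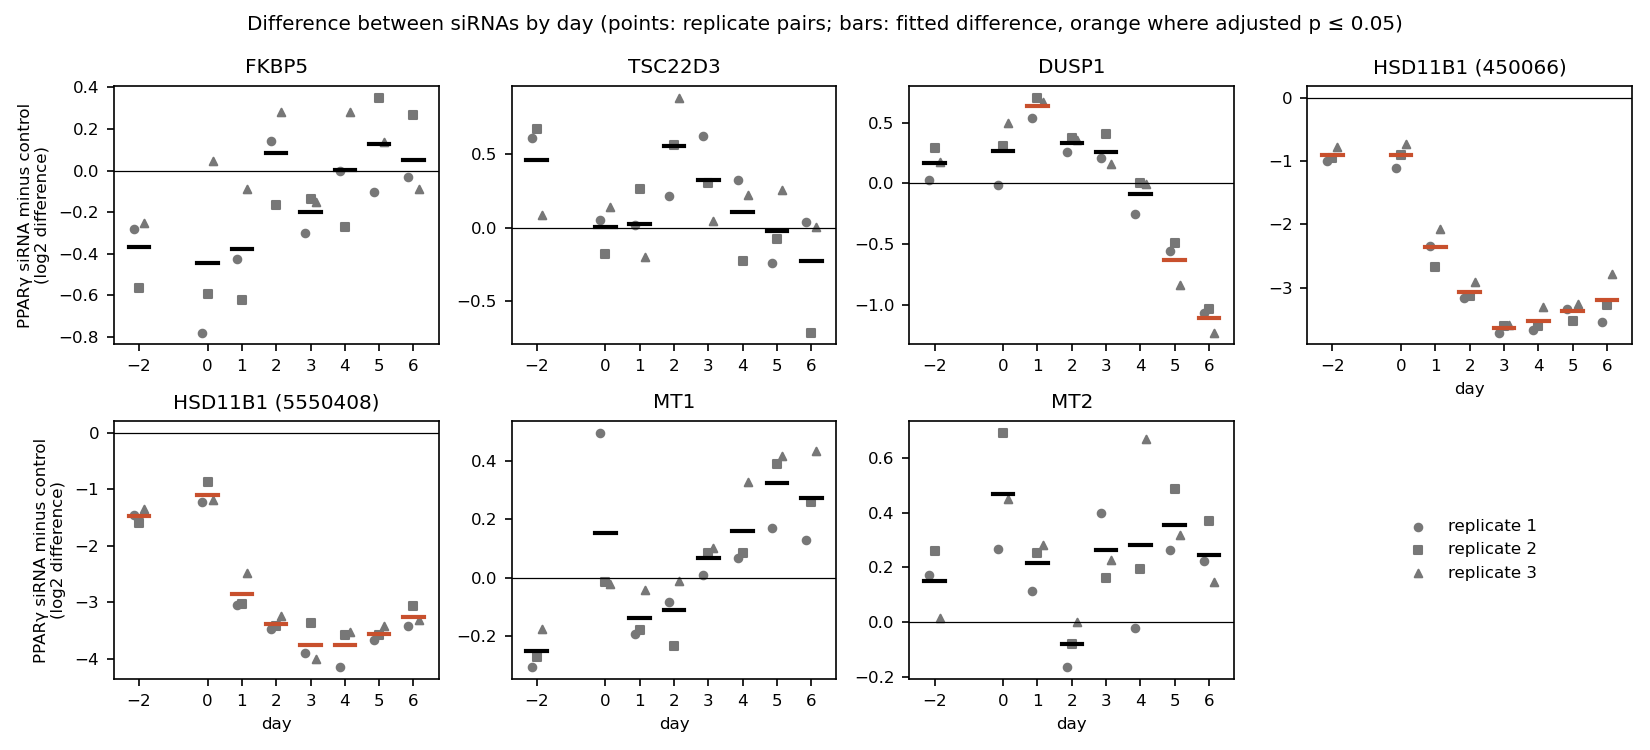
Difference between PPARγ KD and control siRNA (y axis, log2) on each day (x axis) for the 7 probes above background. Points are the 3 replicate pairs and bars the fitted difference, orange where the adjusted p was at most 0.05. Both HSD11B1 probes have orange bars on all 8 days, DUSP1 crosses from above 0 at day 1 to below 0 at days 5 and 6, and the other probes have black bars only. The y axes differ between panels.

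Other genes known to respond to glucocorticoids were read from lists. Counts are of genes with any probe called, while the shares beside them are of all 24613 probes. Of those probes, 10567 were above background on 3 or more arrays, so count and share differ in basis. Of 43 induced genes on the array, 32 were above background. From day −2 to day 0 in control siRNA 18 of the 43 rose and 3 fell, where 4.01% of all probes rose and 5.04% fell. In PPARγ KD 19 rose and 4 fell, beside 3.36% and 4.02% of all probes. The median difference was 0.26 log2 in control siRNA, beside 0.08 for all probes. Lcn2, which encodes a secreted protein that binds siderophores, rose by 4.65 ± 0.14 log2 in control siRNA and at least 101-fold in PPARγ KD. Sult1a1, a sulfotransferase, rose by 4.80 ± 0.20 in control siRNA, where 1 of 3 arrays of day −2 was above background. Glul, glutamine synthetase, was above background on 0 arrays of day −2 and rose at least 4.71-fold (adjusted p = 0.0035). Timp3, an inhibitor of metalloproteases, went the other way and fell by 2.99 ± 0.11.

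At day 3 compared with day 2, 5 of these 43 induced genes rose and 10 fell in control siRNA (4.53% and 3.92% of all probes), and 1 rose and 10 fell in PPARγ KD (0.902% and 0.999%). Over all days, 9 were higher and 11 lower in PPARγ KD, beside 6.37% and 6.74% of all probes, with a median of −0.06 log2 beside −0.03 for all probes. Those with the largest differences were Timp4, an inhibitor of metalloproteases (−1.94 log2), Dusp4, Tgm2, a transglutaminase, and Rasd1, a small GTPase. At day 6 Dusp4, Tgm2 and Rasd1 were above background on 0 arrays of PPARγ KD and were at least 5.02-fold, 4.64-fold and 2.27-fold lower there than in control siRNA.

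Of 21 genes known to be repressed by glucocorticoids, 16 were above background. From day −2 to day 0, 9 of the 21 fell in control siRNA and 2 had a probe that rose, and in PPARγ KD 7 fell and 2 had a probe that rose. Of all probes, 5.04% fell in control siRNA and 4.02% in PPARγ KD. The median was −0.84 log2 in control siRNA and −0.17 in PPARγ KD, beside 0.08 and 0.13 for all probes. Mmp3, a matrix protease, fell at least 16.5-fold in control siRNA and at least 9.27-fold in PPARγ KD, and was above background on 0 arrays of day 0 in both. The chemokine gene Ccl2 fell at least 4.68-fold in control siRNA. Ccl7, a related chemokine, fell by 2.90 ± 0.10 log2 in control siRNA and by 1.68 in PPARγ KD, and the difference of 1.22 was called (adjusted p = 3.38e-06).

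Il1rl1, the receptor of interleukin 33, fell by 2.29 log2 in control siRNA and differed by −0.10 in PPARγ KD, which was not called. The difference of these changes was 2.19 ± 0.16 log2 (adjusted p = 6.4e-12). At day 3, when FKBP5 and TSC22D3 dropped, 11 of the 21 repressed genes rose from day 2 and 0 fell in control siRNA, and 10 rose and 0 fell in PPARγ KD, where 4.53% and 0.902% of all probes rose. Over all days, 10 of the 21 were higher in PPARγ KD and 3 lower, beside 6.37% and 6.74% of all probes, with a median of 0.10 log2 beside −0.03 for all probes.

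Of 23 genes known to be induced by cAMP, 15 were above background. From day −2 to day 0, 5 of the 23 rose and 2 fell in control siRNA (4.01% and 5.04% of all probes), and 6 rose and 0 fell in PPARγ KD (3.36% and 4.02%). The median in control siRNA was 0.07 log2, beside 0.08 for all probes. Sik1 (SNF1LK on the array), a kinase that restrains cAMP signalling, rose by 1.93 ± 0.11 log2, Rgs2, a regulator of G protein signalling, by 1.54, and Pde4d, which degrades cAMP, by 1.46. At day 0 dexamethasone and IBMX were together replaced by insulin and rosiglitazone. From day 0 to day 2, 7 of the 23 fell and 2 rose in control siRNA (5.81% and 6.55% of all probes). Those that fell most were Fosl2, by 1.90 log2, Rgs2 by 1.72 and Pde4d by 1.52. Egr1, an immediate early gene, fell by 1.57 from day −2 to day 0.

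Of 21 other genes of metal handling and its stress response, 1 rose and 1 fell from day −2 to day 0 in control siRNA, near the 4.01% and 5.04% of all probes that did so. They were Tfrc, the transferrin receptor, up by 1.14 log2, and Gclm, an enzyme of glutathione synthesis, down by 0.73. Mt3, Mt4 and Mtf1, the transcription factor of the metal response, were above background on 0 arrays. In PPARγ KD over all days 1 of the 21 was higher and 4 were lower (6.37% and 6.74% of all probes), the lower ones being Tfrc (−0.67 log2), Hmox1, the heme-degrading enzyme (−0.42), Gclm (−0.31) and Sod1, a superoxide dismutase (−0.30).

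**Figure D5:**
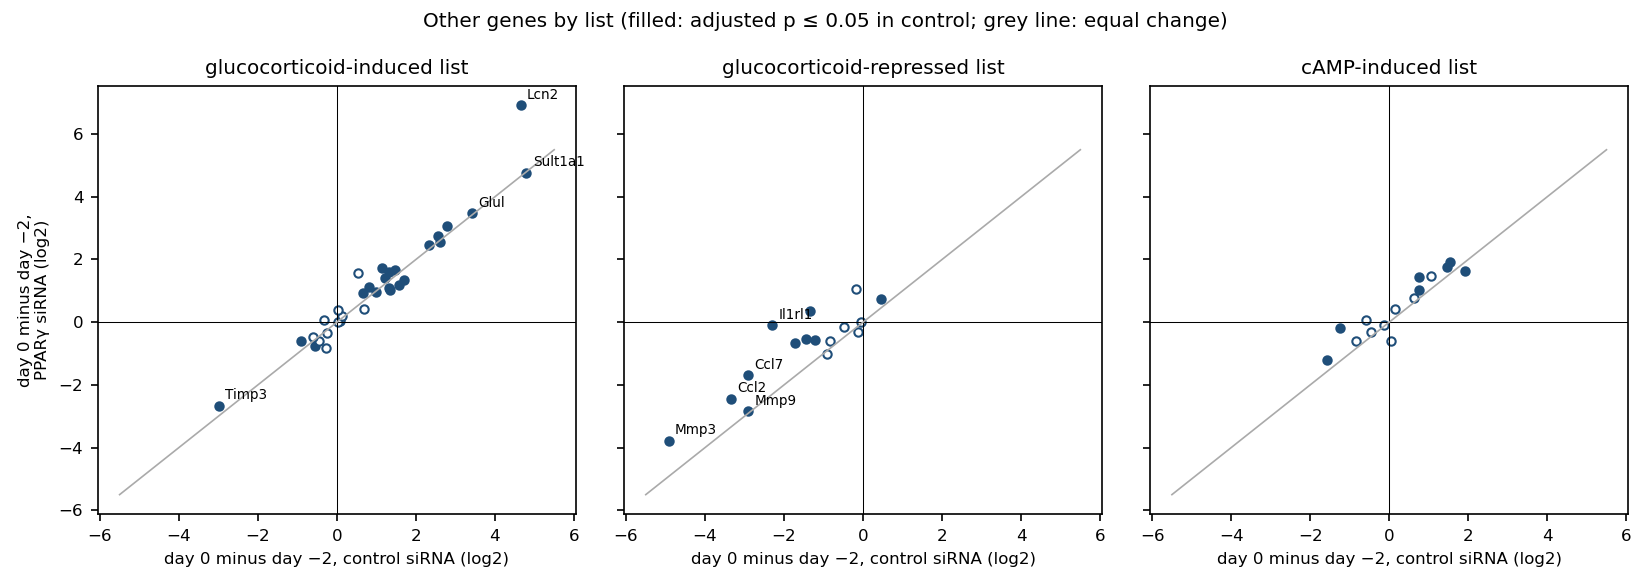
Change from day −2 to day 0 in PPARγ KD (y axis, log2 difference) against that in control siRNA (x axis, log2 difference) for the genes of 3 lists that were above background. Filled points were called in control siRNA, and the grey line marks equal change. Of the 43 induced genes on the array 18 were called right of 0, and the repressed genes Il1rl1, Ccl7 and Mmp3 lie above the line. Values of Lcn2, Sult1a1, Mmp3, Ccl2, Mmp9 and Glul involve groups with few or no arrays above background and are not exact.

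The probes whose curve over the 16 means of siRNA and day was most like that of a member were named from 9210 probes of other genes above background on at least 24 arrays. The 7 genes themselves were left out, and among them TSC22D3 for FKBP5 (r = 0.949) and MT1 and MT2 for each other (r = 0.919) would otherwise have been among the 3 most similar. For FKBP5 the first was ZHX3, a zinc finger and homeobox protein (r = 0.965), followed by KLF5, a transcription factor of early adipogenesis (r = 0.958), and POLR2F (r = 0.949). ZHX3 was also the third for TSC22D3 (r = 0.958), after LIMS2 (r = 0.964) and D11ERTD497E (r = 0.958). For HSD11B1 they were POLN (r = 0.968), LIPE, the hormone-sensitive lipase (r = 0.966), and BC054059 (r = 0.962).

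The likeness was lower for DUSP1, whose closest were ZFP654 (r = 0.861), ACSL4, an acyl-CoA synthetase (r = 0.855), and BC030863 (r = 0.853). For MT1 they were SPHK1, a sphingosine kinase that is also on the list of induced genes (r = 0.913), CCDC117 (r = 0.905) and D10ERTD641E (r = 0.872), and for MT2 they were EAR2, by 2 of its probes (r = 0.923 and 0.915), and D10ERTD641E (r = 0.918). Each r rests on 16 means that share arrays and days, and it describes the curve and carries no test.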

How the data were processed

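Total RNA was labelled and hybridised to Illumina MouseRef-8 arrays. The values the authors deposited are mean bead intensities, not normalized, exported from BeadStudio 3.3.7, with their bead counts (median 35), bead SDs and a detection fraction, which equals 1 minus the detection p-value. The genome build of the probes is not given in the sources used here. Arrays were grouped by their titles.

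Intensities were corrected for background in limma 3.58.1 under R 4.3.3 by a normexp model that reads the detection p-values (offset 16). A scale factor per array (0.730 to 1.58) came from probes of stable rank, those in the 50th to 90th signal percentiles with a shift in rank under 0.05 of the probe number, and the log2 was taken. This follows the rank-invariant scaling of the study's methods but is not the BeadStudio routine. A mean per siRNA and day with the replicate number as a block was fitted to all 48 arrays (lmFit, eBayes), with Bonferroni adjustment over 24613 probes. The fit was tested on simulated data with independent noise, which lacked the pairing of arrays described next. The 24 pairs of arrays with the same day and replicate number deviated together from their group means (r from 0.544 to 0.914), so the numbers pair the samples. No 2 arrays held identical values. The number of arrays and the signal over background limit the precision.

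The genes and lists were chosen with earlier results of these data known. The steps from day 0 to 1, 1 to 2, 2 to 3 and 3 to 6, day 3 against day −2, and the differences between siRNAs in 2 of these steps were added after the data were seen. List genes named are the up to 4 with the largest difference among those called, for day 0 minus day −2 and day 2 minus day 0 in control siRNA and for the knockdown over all days, by the brightest probe above background on at least 3 arrays. A list gene counts as risen or fallen where any of its probes was called. H6pd, Hsd11b2, Mt3, Mt4 and Mtf1 were named after their values were seen. For each member the 3 most similar probes of genes that are not members are named. Promoter sequences came from RefSeq (GRCm38.p6), where 6 of the 7 genes had an entry, and motifs were searched on both strands with pandas.

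Alternatives were quantile normalization, no background correction, an offset of 50, a filter on dim probes, Benjamini-Hochberg adjustment, no replicate block, a replicate block by day and leaving out each replicate.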

Additional observations from a re-analysis of the deposited data

Results flagged for a closer look

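The effect of PPARγ KD differed between days for HSD11B1 and DUSP1 by the test of the difference itself. For HSD11B1 the change from day −2 to days 4 to 6 differed by −2.46 log2 (adjusted p = 3.02e-17) and −2.05 log2 (adjusted p = 1.05e-11) for its 2 probes, PPARγ KD minus control siRNA, with the sign seen in 3 of 3 replicates. The second probe was above background on 0 of 3 arrays of PPARγ KD at day −2, so its value is not exact. For DUSP1 the same difference was −0.78 (adjusted p = 0.000374). From day 0 to day 1, HSD11B1 differed by −1.45 (adjusted p = 2.13e-07) and −1.76 (adjusted p = 3.62e-07), the latter by the probe that was above background on 1 of 3 arrays of PPARγ KD at day 1. From day 3 to day 6, DUSP1 differed by −1.37 (adjusted p = 3.71e-08). No test for a single deviating array was made, since each group holds 3 arrays.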

How the results depend on the processing

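No called difference of a member changed its direction under any alternative run. Of 101 called differences, 1 was lost with quantile normalization, 1 without background correction, 0 with an offset of 50, 0 after a filter on dim probes and 22 with no replicate block. Of the 22 called knockdown differences, 2 were lost under the replicate block by day. Leaving out replicate 1, 2 or 3 lost 20, 22 and 17 of the 101. Benjamini-Hochberg adjustment added 24 of the 102 not called.

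The probes called between the siRNAs over all days went from 3 to 5 under Benjamini-Hochberg adjustment, and from 3 to 5 in the change from day −2 to days 4 to 6. Between day 2 and day 0 the count in control siRNA went from 5 to 3 with no replicate block and lay between 2 and 4 when a replicate was left out. In PPARγ KD it went from 1 to 4 under Benjamini-Hochberg adjustment, to 0 with no replicate block, and lay between 0 and 1 when a replicate was left out. Over all days the pairing moved the count from 3 to 2 under the replicate block by day. Quantile normalization moved the median of all probes by up to 0.14 log2. The cause of these changes was not tested.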
